A study of Mus musculus with 18 samples.

Results

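Interferon-stimulated genes are genes whose transcription rises when a cell senses interferon, and 44 of them were followed here through the first hours of adipogenesis. They were taken by name, from the transcription factors that carry the interferon signal to the antiviral proteins it induces, and were sorted by what their products do into 9 groups. Of the 44 genes, 40 had a transcript cluster, the probes that read one transcript region together, that carried their symbol alone, and these are 40 of the 22180 genes measured in that way. Oas1a, Dtx3l and Gbp2 were found only on clusters shared with other symbols and Ifi44 was matched to none, so no value is given for these 4 genes. Ifi35 and Lgals3bp had 2 clusters each, and the one with the higher mean signal is given.

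Interferons are secreted proteins that warn cells of infection. Type I interferons bind a receptor made of IFNAR1 and IFNAR2, whose kinases JAK1 and TYK2 activate the factor ISGF3, which contains STAT2 and IRF9 and binds the interferon-stimulated response element (ISRE) in promoters. Type II interferon acts through IFNGR1 and IFNGR2, JAK1 and JAK2, and leads to binding at a different element, GAS. Many cells, fibroblasts among them, keep a basal level of these genes without infection, through low constitutive signalling and through ISGF3 components that are themselves interferon-stimulated.

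The cells were 3T3-L1, a mouse preadipocyte line that turns into adipocytes after hormonal induction with IBMX, dexamethasone (a glucocorticoid) and insulin, added to confluent cells. WT cells and SIRT6 KD cells, in which the study's methods describe an shRNA against the deacetylase SIRT6, were each measured before induction (0 hr) and 20 hr and 40 hr after it, with 3 arrays in each of the 6 groups. The labels give the genotypes and the times 0, 20 and 40 without a unit and describe mice and an inhibitor, so the cell line, the knockdown and the unit of time follow the paper, and neither source states whether the WT cells on the arrays carried a control virus. All groups share the cell line, and the 0 hr arrays are those of cells without the induction mixture. Values are log2 signals, and a call means an adjusted p under 0.05 from limma, adjusted by the Benjamini-Hochberg method over 23521 clusters. Signals of different genes come from different probes and were not compared with each other. As a guide to background, the 95th percentile of 1405 clusters of olfactory and vomeronasal receptors was 6.55, called the receptor level here, and 53.5% of all clusters and 25 of the 40 members had a mean signal above it.

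A core of the ISRE, GAAA followed by any 2 bases and GAAA again, was looked for on both strands in the RefSeq promoters (GRCm38.p6). Each window ran from 250 bases before to 50 bases after a start, and a gene with several starts had several windows. The core was present in a window of 14 of the 29 members with a promoter (48.3%) and in 3.99% of 27025 genes. These 29 members had 37 windows. The 11 measured members without a window could not be searched: Oas2, Dhx58, Zbp1, Usp18, Parp9, Parp14, Mx1, Mx2, Iigp1, Ifi27 and Rtp4. The 7 stretches below are shown because they hold this core in members that fell after induction (Gbp7, Igtp and Irgm1) and in members that were not called in WT cells at 20 hr (Ifit1, Isg15, Oas3 and Stat2). Each is read 5′ to 3′ on the gene's strand and ends at or before the gene's start, and the capitals mark the core on either strand, including matches that overlap.
Gbp7 (chr3:142530258-142530317, plus strand): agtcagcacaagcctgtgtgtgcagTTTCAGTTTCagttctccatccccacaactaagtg
Igtp (chr11:58199497-58199555, plus strand): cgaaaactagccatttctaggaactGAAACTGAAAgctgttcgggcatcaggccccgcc
Irgm1 (chr11:48871421-48871475, minus strand): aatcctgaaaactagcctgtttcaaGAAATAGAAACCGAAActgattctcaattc
Ifit1 (chr19:34640760-34640838, plus strand): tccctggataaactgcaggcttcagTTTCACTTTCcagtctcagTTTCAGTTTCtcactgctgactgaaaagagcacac
Isg15 (chr4:156200850-156200921, minus strand): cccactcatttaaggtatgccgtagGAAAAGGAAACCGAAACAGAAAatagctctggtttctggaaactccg
Oas3 (chr5:120777700-120777759, minus strand): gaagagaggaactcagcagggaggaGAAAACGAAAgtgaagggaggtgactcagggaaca
Stat2 (chr10:128270251-128270310, plus strand): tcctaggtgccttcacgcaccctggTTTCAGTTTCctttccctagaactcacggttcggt
The first core began 104 bases before the start used for the window in Ifit1, 53 in Gbp7, 34 in Igtp, 30 in Irgm1, 78 in Isg15, 75 in Oas3 and 222 in Stat2. Isg15 held 3 overlapping matches, Irgm1 held 2 overlapping ones and Ifit1 held 2 separate ones.

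As for the arrays as a whole, the lowest correlation within a group was 0.9905, and 5 of the 18 arrays were closer to the opposite genotype of the same time than to their fellow replicates. These were replicate 3 of the WT cells before induction, all 3 SIRT6 KD replicates of 20 hr and the first SIRT6 KD replicate of 40 hr. Sirt6 itself, the target of the shRNA, ranged from 7.15 to 7.41 in WT and from 6.96 to 7.21 in SIRT6 KD arrays at 0 hr, from 6.96 to 7.34 and from 6.73 to 6.98 at 20 hr, and from 7.08 to 7.18 and from 6.80 to 7.07 at 40 hr. The arrays of the 2 genotypes overlapped at 0 hr and 20 hr, and the limma log2 fold change of Sirt6 was -0.18, -0.30 and -0.22 (SE 0.11 each, adjusted p = 0.768, 0.617 and 0.479). Of the preadipocyte markers, 7 of 7 measured had a mean above the receptor level, among them Pdgfrb, a growth factor receptor of mesenchymal cells. Of 8 adipocyte markers, 7 were called higher at 40 hr against 0 hr in WT cells and 7 in SIRT6 KD cells. Between the genotypes, 0 of the 8 were called at 40 hr.

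Of the 40 interferon-stimulated genes, 29 had a mean above the receptor level in uninduced WT cells, and 26 fell within 20 hr of induction. The median signal of the 40 members lay between 7.16 and 7.30 in the 3 WT arrays at 0 hr, between 6.55 and 6.64 at 20 hr and between 6.51 and 6.60 at 40 hr, so the arrays before and after induction did not overlap. At 20 hr against 0 hr, 26 of 40 members (65%) were called lower and 0 of 40 higher, where 11.7% of all clusters were called lower and 14.1% higher. The median log2 fold change was -0.53 over the members and close to 0 (0.002) over all clusters, and 6 members fell by more than 2-fold. In RNA from a whole dish, fewer cells that express a gene and less of its RNA per cell cannot be told apart. Among the 26 called members, 22 had a WT mean above the receptor level at 0 hr and 15 still had one at 20 hr. The other 11 were Oasl2, Ifih1, Usp18, Parp14, Mx2, Gbp3, Gbp7, Igtp, Irgm1, Iigp1 and Rtp4, of which Mx2, Gbp3, Igtp and Iigp1 lay below the receptor level at both times. The folds of these 11 are differences between deposited values at signals where receptor clusters also lie, so they do not measure how far the transcripts themselves fell. Members above the receptor level in the mean over all arrays were called lower in 18 of 25 cases. That mean includes the 0 hr arrays. Ifih1, Parp14 and Usp18 passed it with WT means of 6.18, 6.21 and 6.52 at 20 hr. The count therefore cannot decide whether the falls were measured above background.

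The fall was still present at 40 hr. At that time 23 of 40 members (57.5%) were called lower in WT cells against 0 hr and 0 higher, where 10.6% and 12.2% of all clusters were called lower and higher, with a median of -0.45. Between 20 hr and 40 hr, 1 member was called lower (Ifit2) and 1 higher (Ddx58), where 5.25% and 3.75% of all clusters were called, and the median was 0.07. The number of members with a group mean above the receptor level was 29 at 0 hr, 21 at 20 hr and 21 at 40 hr.

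In SIRT6 KD cells most members fell as well. The median signal of the members lay between 7.18 and 7.30 in the 3 SIRT6 KD arrays at 0 hr, between 6.67 and 6.69 at 20 hr and between 6.55 and 6.59 at 40 hr. At 20 hr, 25 of 40 members (62.5%) were called lower than at 0 hr and 0 higher, beside 12.2% and 13.2% of all clusters, with a median of -0.53. By 40 hr, 27 of 40 (67.5%) were called lower than at 0 hr and 0 higher, beside 12.5% and 10.7% of all clusters, with a median of -0.46. From 20 hr to 40 hr, 4 members were called lower (Ifit3, Ifit2, Herc6 and Stat2) and 1 higher (Lgals3bp), beside 6.55% and 3.73% of all clusters.

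The time courses of the 2 genotypes share no arrays. Of the 40 members, 24 were called lower in both genotypes at 20 hr, 2 in WT cells alone, 1 in SIRT6 KD cells alone and 13 in neither. Over all clusters, 9.3% were called lower in both genotypes at 20 hr, and 79.4% of those called lower in WT cells were called lower in SIRT6 KD cells too. Across the members, the log2 fold changes of the 2 genotypes at 20 hr had a Pearson r of 0.91 and a Spearman rho of 0.94 (n = 40 genes of the same arrays, which are not independent), and at 40 hr 0.94 and 0.93, beside 0.90 and 0.72 at 20 hr and 0.86 and 0.62 at 40 hr over all clusters. The comparisons of 20 hr and of 40 hr share the 0 hr arrays, and 10 members were called in none of them in either genotype: Stat2, Irf7, Oas2, Oas3, Oasl1, Isg15, Mx1, Rsad2, Cmpk2 and Ifi35. Of these, Irf7, Oas2, Oas3, Oasl1, Mx1, Rsad2 and Cmpk2 had WT means under the receptor level at 0 hr already. For them a missing call does not show a steady level.

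**Figure D1:**
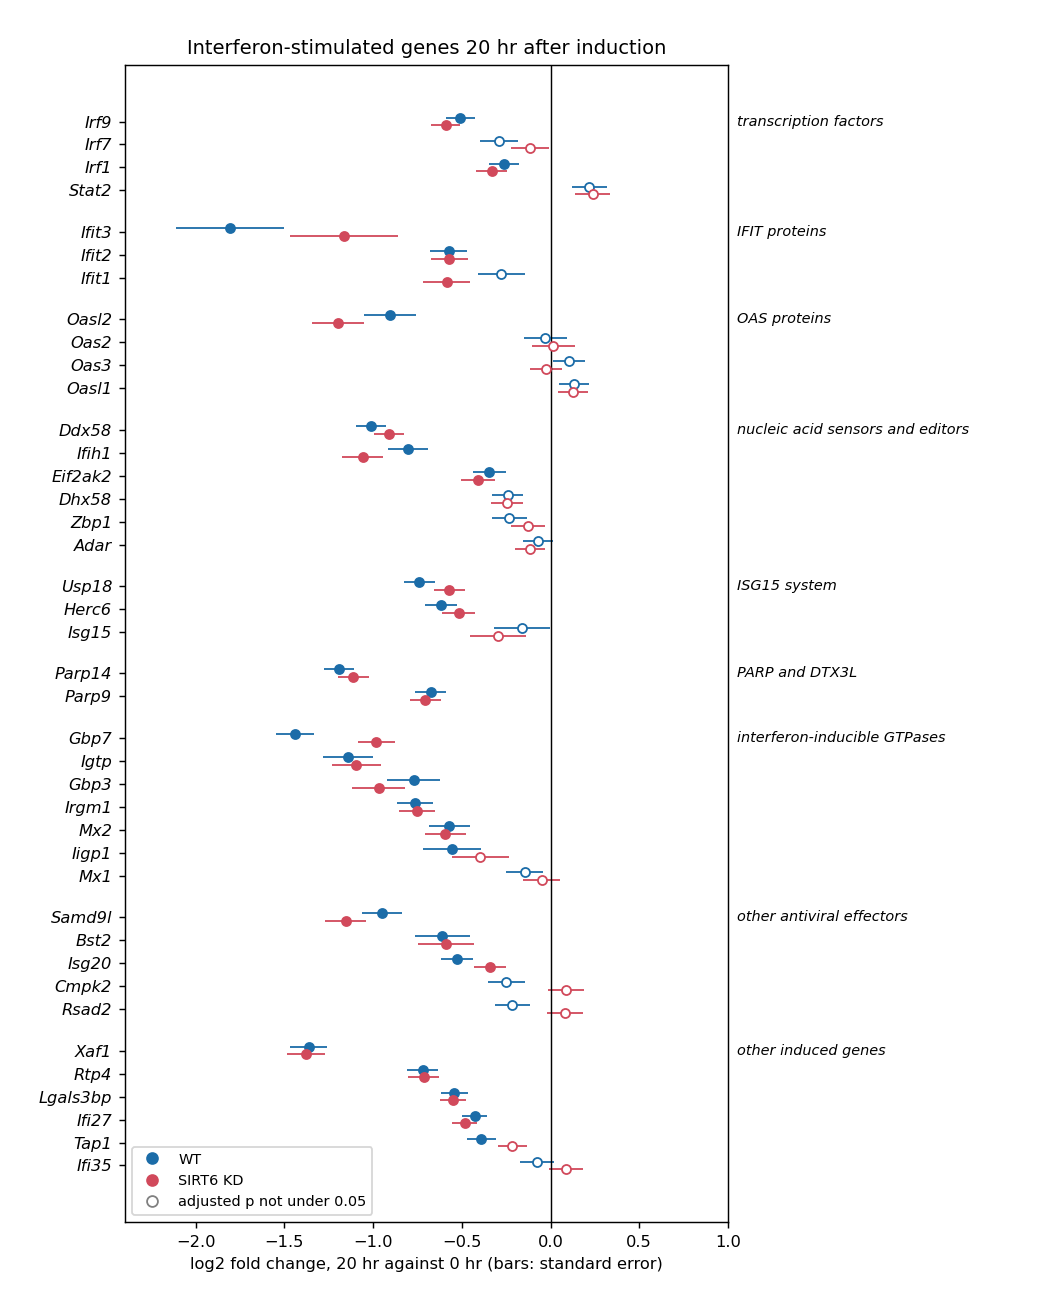
Log2 fold change of the 40 members at 20 hr against 0 hr (horizontal axis) in WT cells (blue) and SIRT6 KD cells (red), by role, with bars for the standard error from limma on 3 arrays a group and open symbols where the adjusted p was not under 0.05. Filled symbols all lie left of 0, down to -1.81 for Ifit3 in WT cells, while Stat2, Oas3, Oasl1 and Oas2 lie near 0.

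The transcription factors of the pathway split. Irf9, the DNA-binding subunit of ISGF3, was 7.50, 7.44 and 7.55 in the WT arrays at 0 hr, 7.01, 7.05 and 6.91 at 20 hr and 7.16, 7.19 and 7.10 at 40 hr. In the SIRT6 KD arrays Irf9 was 7.57, 7.54 and 7.34, then 6.95, 6.91 and 6.81, then 7.01, 7.27 and 7.09. All induced arrays lay below all uninduced arrays of their genotype. The log2 fold change at 20 hr was -0.51 in WT cells (SE 0.08, adjusted p = 0.00011) and -0.59 in SIRT6 KD cells (SE 0.08, adjusted p = 2.12e-05), and at 40 hr it was -0.35 and -0.36 (adjusted p = 0.00423 and 0.00347). Irf1, a factor induced by both types of interferon, was 7.67, 7.70 and 7.92 in WT cells at 0 hr, 7.49, 7.48 and 7.53 at 20 hr and 7.59, 7.53 and 7.47 at 40 hr. The SIRT6 KD arrays gave 7.84, 7.78 and 7.77, then 7.31, 7.59 and 7.50, then 7.60, 7.55 and 7.41. Its induced arrays lay below the uninduced ones too, with smaller changes, of -0.26 and -0.33 at 20 hr (SE 0.09, adjusted p = 0.0285 and 0.00644). Its WT call at 20 hr was lost without WT replicate 3 at 0 hr (-0.18) and without any 1 WT array at 20 hr (-0.28 to -0.25), and its SIRT6 KD call at 40 hr (-0.28) without SIRT6 KD replicate 1 (-0.26) or 2 (-0.29) at 0 hr or replicate 3 at 40 hr (-0.22).

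Stat2, the ISGF3 subunit that carries the activation domain, did not follow Irf9. Its signal was 7.81, 7.95 and 7.97 in WT cells at 0 hr, 8.33, 8.08 and 7.97 at 20 hr and 8.01, 7.97 and 7.96 at 40 hr. SIRT6 KD arrays read 8.0, 8.05 and 8.06, then 8.17, 8.4 and 8.24, then 8.04, 7.70 and 7.81. The group mean was thus highest at 20 hr in each genotype, with log2 fold changes against 0 hr of 0.22 in WT (SE 0.10, adjusted p = 0.12) and 0.24 in SIRT6 KD cells (SE 0.10, adjusted p = 0.0884). From 20 hr to 40 hr, Stat2 fell in SIRT6 KD cells by 0.43 on the log2 scale (SE 0.10, adjusted p = 0.00636), while the WT value was -0.15 (adjusted p = 0.495). Irf7, the factor that amplifies type I interferon production, was 6.35, 6.43 and 6.61 in WT cells at 0 hr, 6.44, 6.07 and 6.02 at 20 hr and 6.37, 6.12 and 6.43 at 40 hr. In SIRT6 KD cells it was 6.32, 6.34 and 6.32, then 6.29, 6.17 and 6.18, then 6.25, 6.44 and 6.32. The mean lay below the receptor level in every group, and Irf7 was called in neither genotype (adjusted p = 0.0545 in WT cells at 20 hr).

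**Figure D2:**
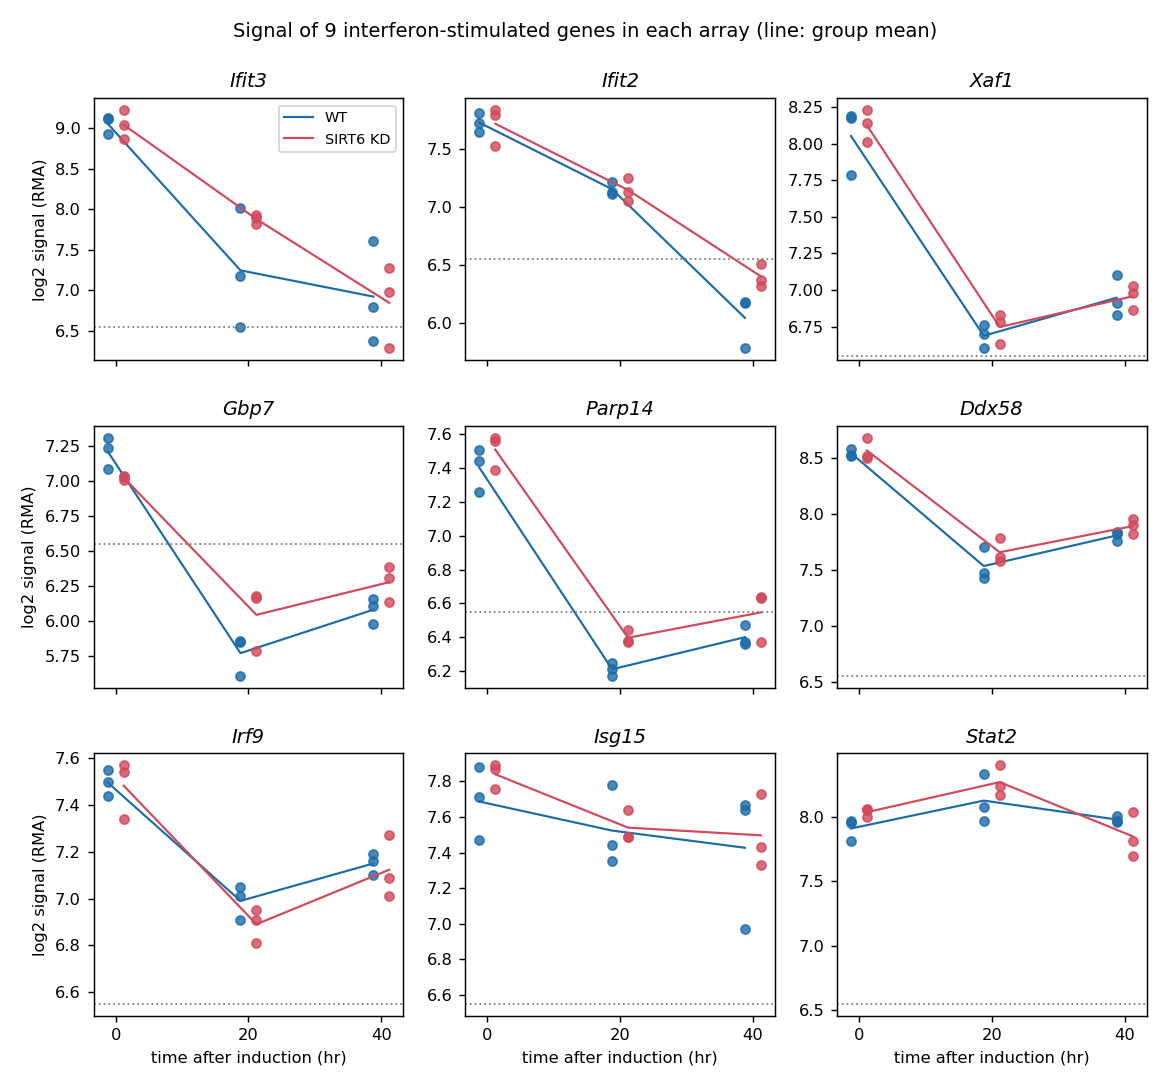
Log2 signal of 9 members in each of the 18 arrays (points) against time after induction in hr, with lines joining the means of the 3 arrays in WT cells (blue) and SIRT6 KD cells (red), and the receptor level of 6.55 dotted. Ifit3 falls from about 9 to between 6.28 and 7.60 at 40 hr, Ifit2 falls mostly after 20 hr, Xaf1, Gbp7, Parp14 and Ddx58 are lowest at 20 hr, and Isg15 and Stat2 were called at neither time against 0 hr.

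The IFIT proteins, which bind foreign RNA and block its translation, include Ifit3, the member with the largest fall in WT cells at both times and in SIRT6 KD cells at 40 hr, while at 20 hr Xaf1 and Oasl2 had lower estimates in SIRT6 KD cells. The neighbouring gene Ifit3b is a near-identical copy, and whether the probes read it too was not tested. Ifit3 was 9.12, 9.11 and 8.93 in the WT arrays at 0 hr, 6.55, 7.17 and 8.01 at 20 hr and 6.79, 7.60 and 6.37 at 40 hr. The SIRT6 KD values of Ifit3 were 9.22, 9.04 and 8.86, then 7.81, 7.93 and 7.89, then 6.98, 7.27 and 6.28. All induced arrays lay below all uninduced ones, and the WT arrays at 20 hr were spread over more than 1 log2 unit. The fall was 3.50-fold in WT cells at 20 hr (log2 -1.81, SE 0.31, adjusted p = 0.00014) and 4.38-fold at 40 hr (log2 -2.13, adjusted p = 2.62e-05). SIRT6 KD cells fell 2.24-fold (log2 -1.16, adjusted p = 0.00729) and 4.59-fold (log2 -2.2, adjusted p = 1.92e-05). The further fall from 20 hr to 40 hr was called in SIRT6 KD cells (log2 -1.03, SE 0.31, adjusted p = 0.0359), but not without any 1 SIRT6 KD array at 20 hr (-1.06 to -1.01) or without replicate 1 (-1.10) or 3 (-0.75) at 40 hr, nor with unmoderated variances, trended variances or all clusters in the adjustment.

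Ifit2 fell later than Ifit3. Its WT signal was 7.81, 7.64 and 7.72 at 0 hr, 7.11, 7.13 and 7.21 at 20 hr and 5.78, 6.17 and 6.18 at 40 hr. The SIRT6 KD arrays gave 7.79, 7.52 and 7.83, then 7.13, 7.05 and 7.25, then 6.37, 6.51 and 6.32. In both genotypes the 3 times did not overlap, and the 40 hr arrays lay below the receptor level. The log2 fold change was -0.57 at 20 hr in both genotypes (SE 0.11, adjusted p = 0.000358 in WT and 0.000409 in SIRT6 KD), and from 20 hr to 40 hr a further -1.10 in WT (adjusted p = 4.26e-07) and -0.74 in SIRT6 KD cells (adjusted p = 6.15e-05). Ifit1, whose product binds RNA with an unmethylated cap, was 7.44, 7.11 and 7.06 in WT cells at 0 hr, 6.78, 7.07 and 6.93 at 20 hr and 6.49, 6.80 and 6.67 at 40 hr. SIRT6 KD arrays read 7.60, 7.36 and 7.32, then 6.84, 6.87 and 6.82, then 6.24, 6.61 and 6.82. In WT cells the 20 hr arrays reached into the range of the uninduced ones and the 40 hr arrays did not. Ifit1 was called lower in WT cells only at 40 hr (log2 -0.55, SE 0.13, adjusted p = 0.00414, against adjusted p = 0.149 at 20 hr), and in SIRT6 KD cells at 20 hr (log2 -0.58, adjusted p = 0.00237) and at 40 hr (log2 -0.87, adjusted p = 5.55e-05).

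Among the OAS proteins, which make or resemble the enzymes that make the second messenger of RNase L, 1 of 4 measured members was called. Oasl2 was 6.86, 6.75 and 6.83 in WT cells at 0 hr, 5.85, 5.86 and 6.01 at 20 hr and 5.95, 6.00 and 5.23 at 40 hr. SIRT6 KD cells gave 7.14, 6.95 and 7.14, then 5.78, 5.92 and 5.93, then 5.88, 5.92 and 6.22. Every induced array was below every uninduced array and below the receptor level, with log2 fold changes at 20 hr of -0.91 in WT (SE 0.15, adjusted p = 8.79e-05) and -1.2 in SIRT6 KD cells (SE 0.15, adjusted p = 3.61e-06). Oas2, Oas3 and Oasl1 had log2 fold changes between -0.03 and 0.20 at both times in both genotypes and were not called. Their WT means at 0 hr were 6.32, 6.54 and 6.40, already under the receptor level, which limits what fall could be measured.

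Sensors of foreign nucleic acids fell to different degrees. Ddx58 encodes RIG-I, a cytosolic sensor of viral RNA, and its signal was 8.53, 8.52 and 8.58 in WT cells at 0 hr, 7.70, 7.43 and 7.47 at 20 hr and 7.82, 7.84 and 7.76 at 40 hr. The SIRT6 KD values of Ddx58 were 8.68, 8.50 and 8.52, then 7.58, 7.61 and 7.78, then 7.90, 7.82 and 7.95. The 20 hr arrays were the lowest in both genotypes. Against 0 hr, Ddx58 fell 2.01-fold in WT cells at 20 hr (log2 -1.01, SE 0.08, adjusted p = 1.83e-08) and 1.67-fold at 40 hr (log2 -0.74, adjusted p = 1.38e-06), and 1.88-fold and 1.60-fold in SIRT6 KD cells. Its rise from 20 hr to 40 hr in WT cells (log2 0.27, SE 0.08, adjusted p = 0.0467) was just inside the threshold and was lost in 19 of 28 alternative settings (0.22 to 0.29), most of them with 1 array left out, and the SIRT6 KD value was 0.24 (adjusted p = 0.0824).

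Ifih1, which encodes the related sensor MDA5, was 6.81, 6.95 and 7.18 in WT and 7.39, 7.19 and 7.52 in SIRT6 KD cells at 0 hr. At 20 hr it was 6.09, 6.19 and 6.26 in WT and 6.07, 6.44 and 6.40 in SIRT6 KD cells, below all uninduced arrays. Its log2 fold change at 20 hr was -0.80 in WT (SE 0.11, adjusted p = 2.11e-05) and -1.06 in SIRT6 KD cells (adjusted p = 7.31e-07). Eif2ak2, the kinase PKR that stops translation on sensing double-stranded RNA, was called lower at both times in both genotypes, by 0.35 to 0.53 on the log2 scale. Dhx58 (LGP2, a regulator of both sensors), Zbp1 (a sensor of Z-form nucleic acid) and Adar (an RNA editor) were called only in SIRT6 KD cells at 40 hr, with log2 fold changes of -0.27, -0.35 and -0.27 (adjusted p = 0.0367, 0.0123 and 0.0266). The WT values at 40 hr were -0.20, -0.17 and -0.03, and none of these 3 genes had a called difference between the genotypes in its change.

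The ISG15 system consists of the ubiquitin-like protein ISG15 and of enzymes that attach or remove it. Usp18, the protease that removes ISG15 and also restrains the type I receptor, was 7.29, 7.18 and 7.31 in WT cells at 0 hr, 6.54, 6.58 and 6.44 at 20 hr and 6.57, 6.43 and 6.49 at 40 hr. The groups before and after induction did not overlap, and the log2 fold change was -0.74 at 20 hr in WT (SE 0.09, adjusted p = 1.7e-06) and -0.57 in SIRT6 KD cells (adjusted p = 4.04e-05). Herc6, the mouse ligase for ISG15, fell by 0.62 and 0.52 at 20 hr (adjusted p = 3.68e-05 and 0.000249) and in SIRT6 KD cells by a further 0.45 up to 40 hr (adjusted p = 0.00233). Isg15 itself was 7.88, 7.71 and 7.47 in WT cells at 0 hr, 7.78, 7.35 and 7.44 at 20 hr and 7.64, 7.67 and 6.97 at 40 hr. These arrays overlapped, while the SIRT6 KD arrays, from 7.76 to 7.89 before induction, all lay lower after it, and the log2 fold changes from -0.16 to -0.34 in the 2 genotypes were not called (SE 0.16, adjusted p from 0.137 to 0.558).

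Both measured members of the PARP group were called lower at every time. Parp14, an ADP-ribosyltransferase of antiviral and macrophage responses, was 7.26, 7.44 and 7.51 in WT cells at 0 hr, 6.17, 6.25 and 6.21 at 20 hr and 6.47, 6.37 and 6.36 at 40 hr. SIRT6 KD cells gave 7.56, 7.58 and 7.39, then 6.37, 6.38 and 6.44, then 6.64, 6.37 and 6.63. The gap between uninduced and induced arrays was wider than the spread within any group, with a 2.29-fold fall in WT at 20 hr (log2 -1.19, SE 0.09, adjusted p = 3.27e-09) and 2.16-fold in SIRT6 KD cells (log2 -1.11, adjusted p = 8.95e-09). Parp9, the partner of the ligase DTX3L in DNA repair and interferon responses, fell by 0.68 and 0.71 at 20 hr (adjusted p = 7.16e-06 and 4.4e-06).

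Interferon-inducible GTPases, which attack the vacuoles of intracellular pathogens or, as the Mx proteins do, viral particles, were called lower in 6 of 7 measured members in WT cells at 20 hr and 5 of 7 in SIRT6 KD cells. Gbp7, a guanylate-binding protein, was 7.31, 7.09 and 7.24 in WT cells at 0 hr, 5.85, 5.86 and 5.61 at 20 hr and 5.98, 6.11 and 6.16 at 40 hr. In SIRT6 KD cells it was 7.01, 7.03 and 7.04, then 6.17, 5.79 and 6.18, then 6.31, 6.14 and 6.39. It was thus above the receptor level in all uninduced arrays and below it in all induced ones. The fall at 20 hr was 2.71-fold in WT (log2 -1.44, SE 0.11, adjusted p = 4.02e-09) and 1.98-fold in SIRT6 KD cells (log2 -0.98, adjusted p = 6.97e-07).

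Igtp, an immunity-related GTPase also called Irgm3, was 6.47, 6.53 and 6.56 in WT cells at 0 hr and 5.18, 5.58 and 5.37 at 20 hr, a 2.21-fold fall (log2 -1.14, SE 0.14, adjusted p = 3.64e-06), and was 5.43, 5.64 and 5.92 at 40 hr. In SIRT6 KD cells it was 6.70, 6.66 and 6.78, then 5.66, 5.64 and 5.56, then 5.73, 5.54 and 6.20, a 2.13-fold fall at 20 hr (adjusted p = 6.61e-06). Induced and uninduced arrays of Igtp did not overlap in either genotype. Irgm1, the regulator of this GTPase family, fell by 0.76 and 0.75 at 20 hr (adjusted p = 1.08e-05 and 1.36e-05). Gbp3 was 6.38, 6.29 and 6.45 in WT cells at 0 hr, 5.84, 5.52 and 5.44 at 20 hr and 5.44, 5.96 and 5.98 at 40 hr. SIRT6 KD cells gave 6.27, 6.75 and 6.74, then 5.55, 5.62 and 5.68, then 5.81, 5.58 and 5.99. The groups before and after induction did not overlap, and Gbp3 fell by 0.77 and 0.97 at 20 hr (adjusted p = 0.000563 and 5.7e-05). Its WT call at 40 hr (log2 -0.58, adjusted p = 0.00726) was lost without WT replicate 1 at 40 hr (-0.40).

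Of the Mx genes, Mx2 fell by 0.57 and 0.59 at 20 hr (adjusted p = 0.000721 and 0.000531), while Mx1 was 5.03, 5.20 and 5.09 in WT cells at 0 hr and 4.81, 5.05 and 5.02 at 20 hr, and in SIRT6 KD cells 5.20, 5.39 and 5.17, then 5.22, 5.04 and 5.36. Both Mx genes lay under the receptor level in every array, and Mx1 was not called. Iigp1, an immunity-related GTPase, was 5.38, 5.79 and 6.01 in WT cells at 0 hr, 5.24, 5.09 and 5.19 at 20 hr and 5.42, 5.49 and 5.20 at 40 hr. Iigp1 in SIRT6 KD cells was 6.05, 5.66 and 5.69, then 5.47, 5.04 and 5.70, then 5.87, 5.64 and 5.64. All of these lie under the receptor level, and its WT call at 20 hr (log2 -0.56, SE 0.16, adjusted p = 0.0143) was lost without WT replicate 2 (-0.52) or 3 (-0.41) at 0 hr or replicate 2 at 20 hr (-0.51).

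**Figure D3:**
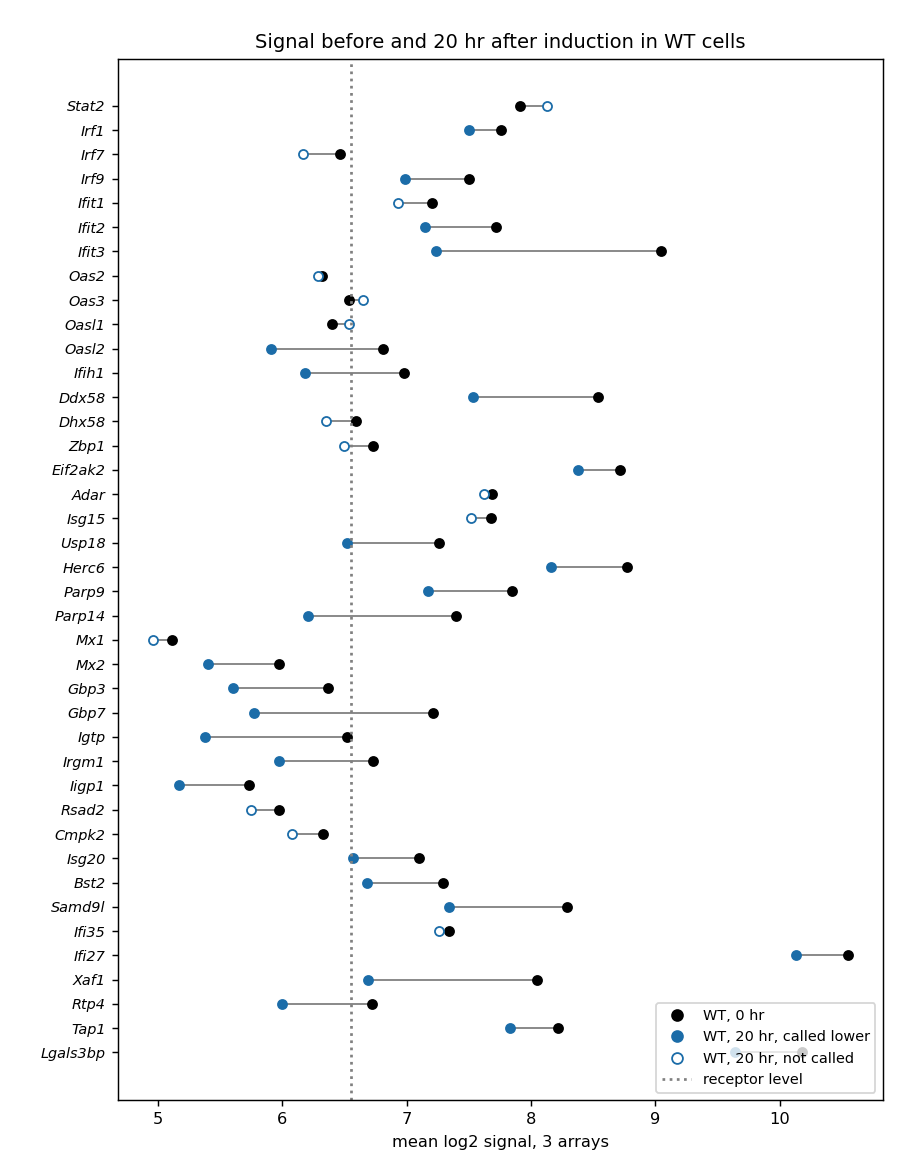
Mean log2 signal of each member over 3 WT arrays at 0 hr (black) and at 20 hr (blue, filled where called lower), by role from top to bottom, with the receptor level of 6.55 dotted. Parp14, Gbp7, Ifih1, Oasl2, Irgm1, Rtp4 and Usp18 cross the receptor level on falling, while Mx1, Mx2, Iigp1 and Rsad2 lie below it at both times, and levels of different genes come from different probes and are not to be compared.

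The remaining antiviral effectors fell in part. Samd9l, an inhibitor of protein synthesis in infected cells, was 8.25, 8.33 and 8.28 in WT cells at 0 hr, 7.24, 7.24 and 7.53 at 20 hr and 6.87, 7.28 and 7.07 at 40 hr. SIRT6 KD cells gave 8.51, 8.36 and 8.25, then 7.39, 7.27 and 6.99, then 7.34, 7.35 and 7.34. No induced array reached an uninduced one, and the log2 fold change at 20 hr was -0.95 in WT (SE 0.11, adjusted p = 2.55e-06) and -1.16 in SIRT6 KD cells (adjusted p = 2.19e-07). Bst2 (tetherin, which holds budding virions at the cell surface) was 7.36, 7.36 and 7.16 in WT cells at 0 hr, 6.71, 6.79 and 6.55 at 20 hr and 7.0, 6.89 and 7.15 at 40 hr. The SIRT6 KD arrays read 7.32, 7.45 and 6.92, then 6.29, 6.84 and 6.79, then 7.08, 6.58 and 6.62. Only the SIRT6 KD arrays at 40 hr overlapped with the uninduced ones of their genotype, and Bst2 fell by 0.61 in WT and 0.59 in SIRT6 KD cells at 20 hr (SE 0.16, adjusted p = 0.00606 and 0.00808). Its SIRT6 KD calls rested on few arrays, since the one at 20 hr was lost without replicate 2 at 0 hr (-0.48) or replicate 1 at 20 hr (-0.41), and the one at 40 hr (log2 -0.47, adjusted p = 0.0377) without replicate 1 (-0.42) or 2 (-0.36) at 0 hr or replicate 2 (-0.38) or 3 (-0.40) at 40 hr. Isg20, an exonuclease, fell by 0.53 and 0.34 at 20 hr (adjusted p = 0.000192 and 0.0088). Rsad2 (viperin) and its neighbour Cmpk2, a nucleotide kinase, had log2 fold changes between -0.25 and 0.09 against 0 hr and were not called, and both lay under the receptor level in the mean.

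Among the other induced genes, Xaf1, a pro-apoptotic antagonist of XIAP, was 8.19, 7.79 and 8.18 in WT cells at 0 hr, 6.60, 6.70 and 6.76 at 20 hr and 6.83, 6.91 and 7.10 at 40 hr. In SIRT6 KD cells Xaf1 was 8.01, 8.23 and 8.14, then 6.83, 6.63 and 6.78, then 7.03, 6.98 and 6.86. It fell 2.57-fold in WT (log2 -1.36, SE 0.11, adjusted p = 9.11e-09) and 2.60-fold in SIRT6 KD cells at 20 hr (log2 -1.38, adjusted p = 8.46e-09), and the 2 genotypes overlapped at each time. Rtp4, a chaperone of receptors, fell by 0.72 and 0.71 (adjusted p = 3.1e-06 and 3.7e-06), and Ifi27, a small hydrophobic membrane protein, by 0.43 and 0.48 (adjusted p = 0.00011 and 2.85e-05). Tap1, a subunit of the peptide transporter for class I antigen presentation, was called only in WT cells at 20 hr (log2 -0.39, adjusted p = 0.00105).

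Lgals3bp, a secreted galectin-binding protein, fell by 0.54 and 0.55 at 20 hr (SE 0.08, adjusted p = 1.58e-05 and 1.43e-05). It was the member called higher from 20 hr to 40 hr in SIRT6 KD cells (log2 0.29, adjusted p = 0.0166), and the WT value was 0.23 (adjusted p = 0.0635). The dimmer cluster of Lgals3bp, with a mean of 7.86, had a log2 fold change of -0.15 in WT cells at 20 hr (adjusted p = 0.329), so its 2 clusters disagreed on the call. Both clusters of Ifi35, which encodes a leucine zipper protein, were not called in WT cells at 20 hr (log2 -0.08 and -0.09, adjusted p = 0.652 and 0.69).

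The comparison of SIRT6 KD with WT cells asks whether the deacetylase bears on these genes before or during induction. No member was called at any of the 3 times: 0 of 40 were lower and 0 higher at 0 hr (0% and 0% of all clusters), at 20 hr (0.017% and 0.00425%) and at 40 hr (0.0723% and 0.0213%). At an unadjusted p under 0.05 from limma there were 1, 6 and 4 members, beside 1626, 1565 and 2590 of the 23521 clusters. The smallest adjusted p of the members was 0.613, 0.511 and 0.208. The median log2 fold change of the members was 0.04, 0.07 and 0.00. The 95% intervals of single members had a median half-width of 0.21, and the whole interval lay within 1.5-fold either way in 38, 39 and 38 of the 40 members, with bounds reaching from -0.65 to 0.63 at 0 hr, from -0.37 to 1.27 at 20 hr and from -0.72 to 0.69 at 40 hr. A p that misses the threshold does not show that the genotypes were alike.

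Arrays of the 2 genotypes that did not overlap were counted as a further description. At 0 hr, the SIRT6 KD values were all below the WT values in 3 members and all above them in 5, where the shares over all clusters were 6.74% and 5.6%. The counts at 20 hr were 0 and 5, beside 6.24% and 5.42%, and at 40 hr 2 and 6, beside 9.8% and 6.13%. The 5 at 0 hr were Stat2, Oasl2, Ifih1, Igtp and Rtp4, the 5 at 20 hr were Adar, Parp14, Cmpk2, Isg20 and Rtp4, and the 6 at 40 hr were Ifit2, Eif2ak2, Iigp1, Cmpk2, Isg20 and Samd9l. The other way, Irf7, Gbp7 and Rsad2 were lower at 0 hr and Oasl1 and Zbp1 at 40 hr.

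The largest differences are given next. At 0 hr, Ifih1 (values above) was 0.38 higher in SIRT6 KD cells on the log2 scale (95% interval 0.15 to 0.63, SE 0.11, adjusted p = 0.613). At 20 hr the largest estimate was that of Ifit3, 0.63 (95% interval -0.01 to 1.27, SE 0.31, adjusted p = 0.751), where the highest WT array, 8.01, exceeded all 3 SIRT6 KD arrays. It was 0.29 without WT replicate 1 and 1.02 without WT replicate 3 at 20 hr. Cmpk2, by contrast, was 5.96, 6.10 and 6.19 in WT and 6.66, 6.30 and 6.30 in SIRT6 KD arrays at 20 hr, with a difference of 0.34 (95% interval 0.12 to 0.55, SE 0.10, adjusted p = 0.511) that became 0.22 without SIRT6 KD replicate 1. At 40 hr Ifit2, which had fallen in both genotypes, was 0.36 higher in SIRT6 KD cells (95% interval 0.13 to 0.58, SE 0.11, adjusted p = 0.208), or 0.22 without WT replicate 1. Iigp1 was 0.35 higher (SE 0.16, adjusted p = 0.44). Bst2 had the largest negative estimate there, -0.25 (SE 0.16, adjusted p = 0.598), with arrays that overlapped and values of -0.41 and -0.16 without SIRT6 KD replicate 1 or 2 at 40 hr.

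Whether induction changed the members differently in the 2 genotypes was tested by the difference of the 2 time courses. It was called in 0 of 40 members at 20 hr against 0 hr, at 40 hr against 0 hr and at 40 hr against 20 hr, beside 0%, 0% and 0% of all clusters. At an unadjusted p under 0.05 from limma, there were 2 members in each of the 3 comparisons, and 1180, 2204 and 1044 of the 23521 clusters.

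**Figure D4:**
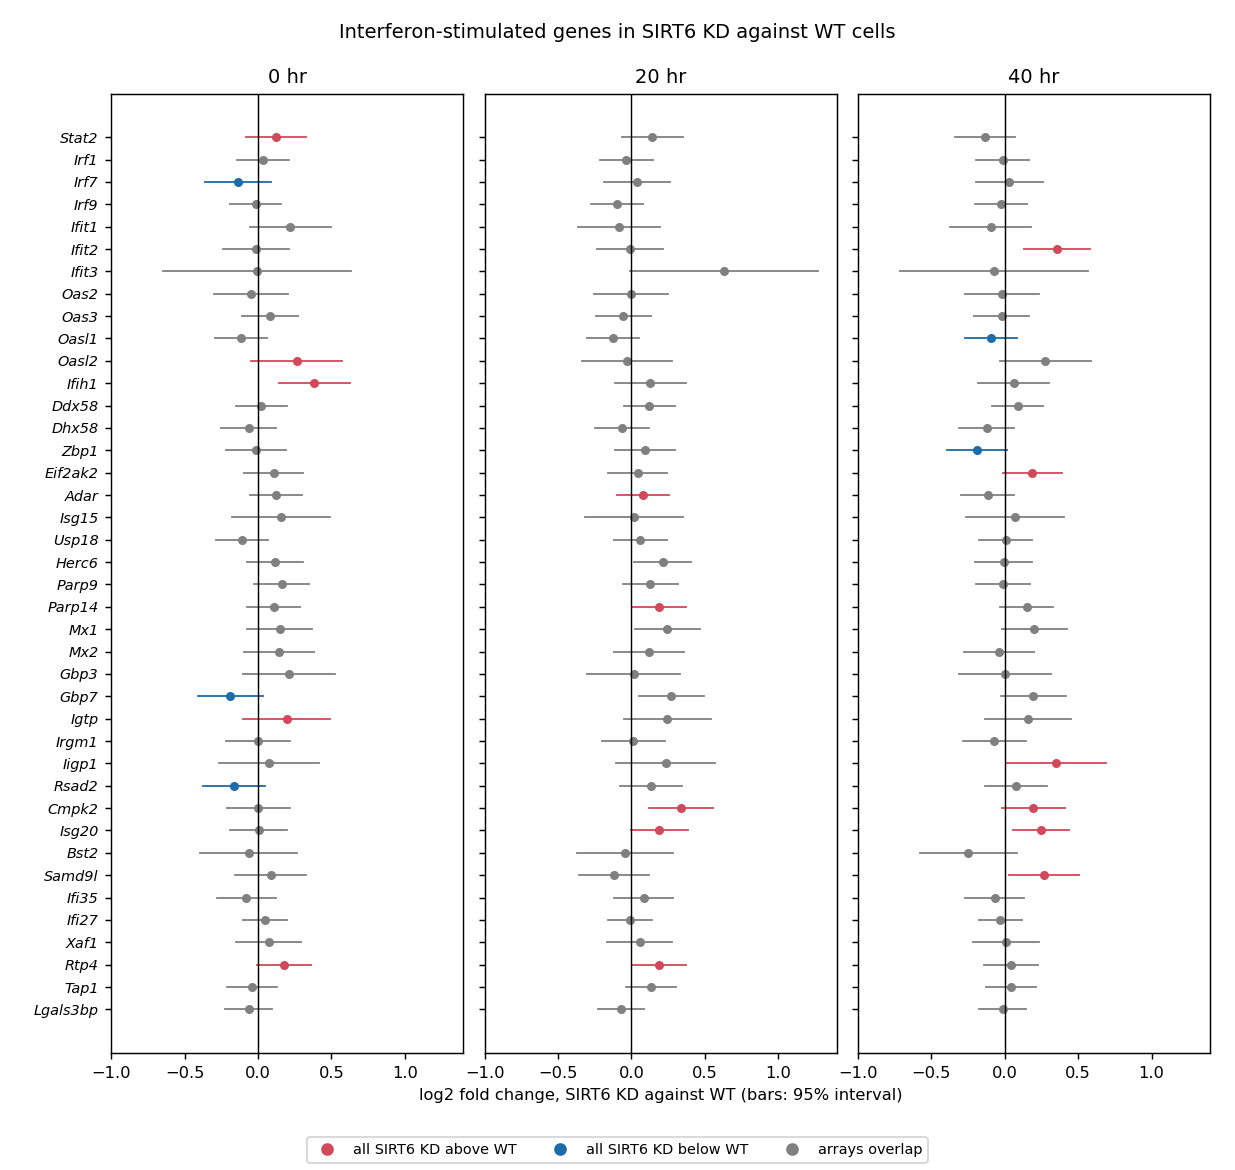
Log2 fold change of each member in SIRT6 KD against WT cells (horizontal axis) at 0 hr, 20 hr and 40 hr, with the 95% interval from limma on 3 arrays a group. Red marks members with every SIRT6 KD value above every WT value, blue those with every value below and grey those that overlapped, and no member passed an adjusted p of 0.05.

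The other genes of the pathway moved in both directions. Of 9 measured interferon ligands, 0 were called lower and 0 higher at either time in either genotype, and Ifnb1 and Ifng, the genes of interferon beta and gamma, had mean signals of 4.77 and 5.32, under the receptor level, while 4 of the 9 (Ifna1, Ifna4, Ifnl2 and Ifnl3) lay above it. Among 9 receptors and kinases, 3 were called lower and 1 higher in WT cells at 20 hr. Tyk2, a kinase of the type I receptor, fell by 0.55 (SE 0.11, adjusted p = 0.000949), and Ifngr2 and Il10rb, receptor chains for interferon gamma and lambda, by 0.37 and 0.38 (adjusted p = 0.00245 and 0.00287). Jak2, the kinase bound to the IFNGR2 chain, rose by 0.84 (SE 0.07, adjusted p = 1.86e-08), and Ifnar1, Ifnar2 and Jak1 had values of 0.02, 0.07 and 0.02.

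Adaptors and kinases downstream of the sensors went both ways, with 4 of 10 called lower and 2 higher in WT cells at 20 hr. Tlr3, the endosomal receptor for double-stranded RNA, had a WT mean of 7.95 ± 0.12 (SD, n = 3) at 0 hr and 6.37 ± 0.09 at 20 hr, a log2 fold change of -1.59 (adjusted p = 2.47e-10), and -1.24 in SIRT6 KD cells (adjusted p = 7.06e-09). Tmem173, the gene of STING, fell by 0.70 (adjusted p = 0.000164), while the DNA sensor gene Mb21d1 (cGAS) rose by 1.2 (adjusted p = 6.42e-07) and the adaptor Myd88 by 0.86 (SE 0.10). Of 6 brakes on interferon signalling, 3 were called higher and 0 lower in WT cells at 20 hr. Socs3, an inhibitor of JAK kinases, rose by 1.31 (adjusted p = 9.52e-09), Ptpn11 by 0.52 (adjusted p = 4.78e-05) and Ptpn2 by 0.48 (adjusted p = 0.000654), while Socs1 had a value of 0.07 (adjusted p = 0.741).

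Genes of class I antigen presentation, many of them also raised by interferons, were called lower in 5 of 9 cases and higher in 0 in WT cells at 20 hr, with Psmb10, Psmb9 and Psmb8 of the immunoproteasome at -0.51, -0.44 and -0.37 and B2m at -0.27. By 40 hr, 1 of the 9 was called lower in WT cells against 0 hr. Of the other interferon regulatory factors, 1 of 4 was called, Irf2, an antagonist of IRF1 on many promoters, which rose by 0.30 (SE 0.07, adjusted p = 0.00192). No gene of these lists was called between SIRT6 KD and WT cells at any time.

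**Figure D5:**
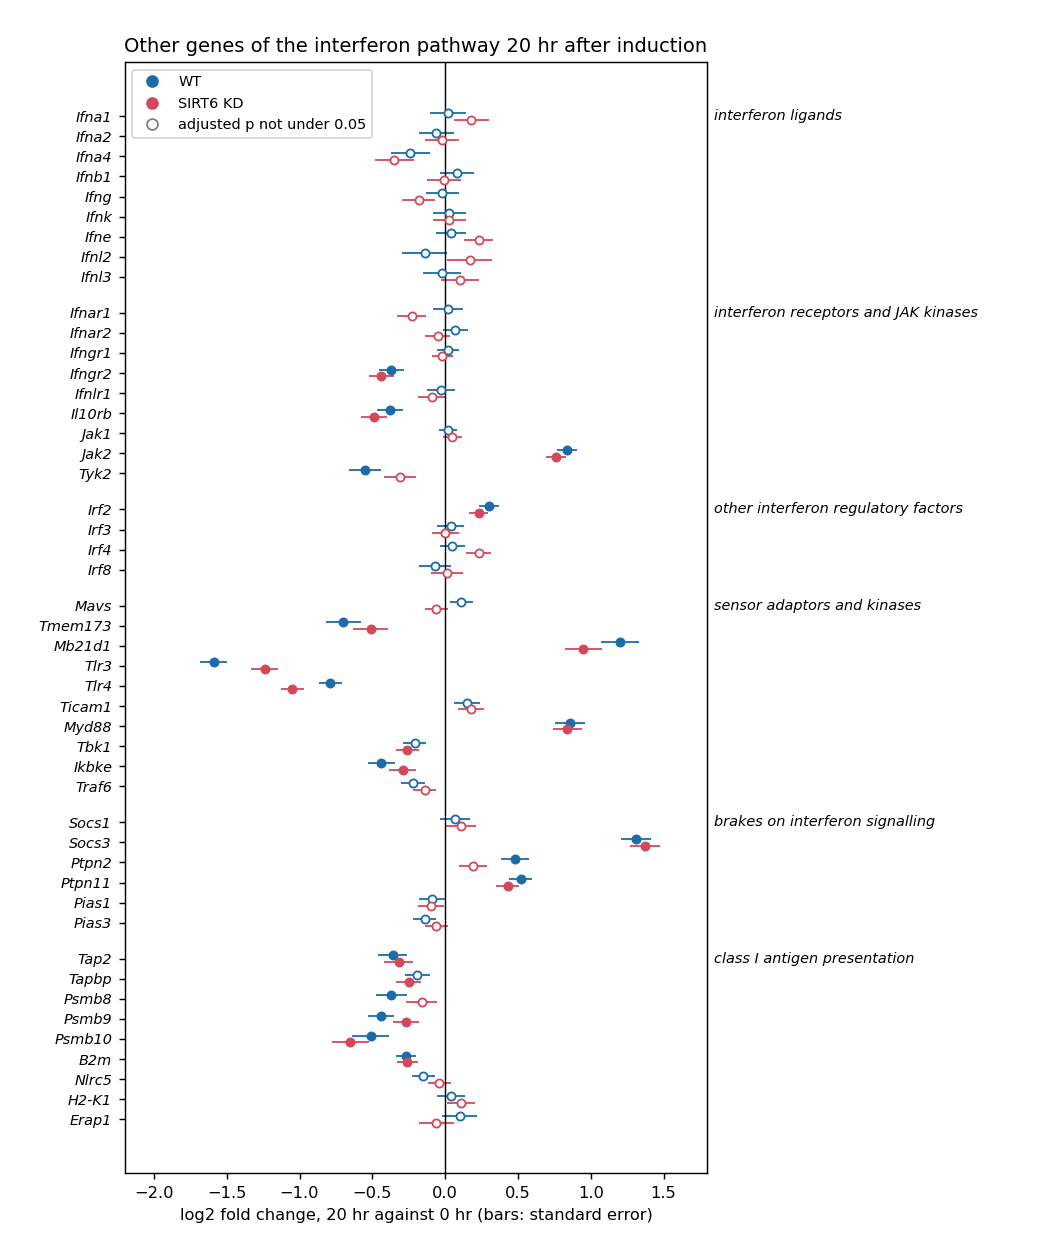
Log2 fold change at 20 hr against 0 hr (horizontal axis) of other genes of the interferon pathway in WT cells (blue) and SIRT6 KD cells (red), by role, with standard errors from limma on 3 arrays a group and open symbols where the adjusted p was not under 0.05. Ligands lie near 0, Tlr3 is lowest at -1.59 in WT cells, and Socs3 (1.31 in WT), Mb21d1 and Myd88 lie to the right.

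Some other genes moved along with the members, and their part in the fall was not tested. Of 8 glucocorticoid targets, 7 were called higher and 0 lower in WT cells at 20 hr, with Zbtb16 at 1.73 and Fkbp5 at 1.61 on the log2 scale, and the mean signal of the 8 ran from 7.44 to 7.54 in the WT arrays at 0 hr and from 8.29 to 8.38 at 20 hr. Of the 7 preadipocyte markers, 5 were called lower in WT cells at 20 hr, and their mean signal went from between 10.78 and 10.88 to between 10.26 and 10.35. Of 8 macrophage markers, 3 lay above the receptor level and 1 was called lower, Lyz2 (log2 -2.2, adjusted p = 2.11e-10), so that the mean of the 8 ran from 6.47 to 6.58 at 0 hr and from 6.22 to 6.32 at 20 hr. The defining markers Ptprc, Adgre1 and Csf1r were at 5.23, 5.73 and 6.13, under the receptor level, and Cd68 was at 7.78 with no call. Lymphocyte markers lay above the receptor level in 1 of 6 cases and endothelial markers in 0 of 6, and none of either list was called in WT cells at 20 hr.

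The ISRE core occurred both in members that were called and in members that were not. It was in 9 of the 19 members with a promoter that were called lower in WT cells at 20 hr (47.4%). It was also in 5 of the 10 that were not (50%), and these counts were not tested. The 5 were Ifit1, Isg15, Oas3, Rsad2 and Stat2. Oas3 and Rsad2 had WT means of 6.54 and 5.97 at 0 hr, under the receptor level, which limits what fall could be measured. The same holds for Irf7, Oasl1 and Cmpk2, which lacked the core. Ifit1 was called lower in WT cells at the later time. The shares therefore do not compare members that fell with members that stayed level. Stretches with a perfect core stood before Gbp7 and Igtp, whose induced arrays all lay below the uninduced ones, and before Isg15, Oas3 and Stat2, which were called at neither time against 0 hr. The GAS motif, TTCNNNGAA, which reads the same on both strands, was in 9 of the 29 members (31.0%), in 7 of 19 called and 2 of 10 not called, and in 9.55% of all genes. An ISRE match in Bst2 overlapped a GAS match. A match is a stretch of letters and not a measured binding site.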

How the data were processed

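The authors deposited one table of log2 expression values, obtained by RMA (background correction, quantile normalization and summary of probes into transcript clusters) from 18 Mouse Gene 2.0 ST arrays, and the RMA software version is not given in the sources used here. Of 41345 transcript clusters, 23521 carried 1 gene symbol and were tested, while 1820 with several symbols and 16004 with none were left out. Because probes were quantile normalized, values are relative to the array, and the number of arrays limits their precision.

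All 18 arrays were fitted together in limma 3.58.1 (R 4.3.3), with 6 group means, moderated variances and 12 residual degrees of freedom, and contrasts gave the differences between times, between genotypes and between the 2 time courses. Calls rest on an adjusted p under 0.05 (Benjamini-Hochberg, over all 23521 clusters). The labels do not say whether replicates were separate cultures, so p-values measure the spread between these samples, which may be technical. Over all 45 pairs, same-numbered arrays did not deviate together (mean r = -0.0202, range -0.225 to 0.179, 6 of them over 0.1). Between WT and SIRT6 KD arrays of one time, r was 0.119, 0.05 and 0.179 for replicates 1 to 3 at 0 hr. It was 0.157, 0.07 and 0.004 at 20 hr, and -0.058, -0.051 and 0.025 at 40 hr. Replicate numbers were not taken as pairs in the main fit.

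The members, gene lists and rules were chosen with earlier results of these data known. Genes described with full values were the 4 transcription factors, in each role the called members with the largest fall or rise in WT cells at 20 hr, members called between genotypes, and the 5 largest genotype differences at each time, and members named for their role or for resting on few arrays were added to these after values were seen. Alternatives were unmoderated and trended variances, a replicate block, the mean over the clusters of a gene, bright clusters alone, all clusters, median centring, cyclic loess, 2 fold thresholds, and each array left out in turn. Promoter windows came from RefSeq (GRCm38.p6) and were matched by Entrez gene identifier.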

Additional observations from a re-analysis of the deposited data

How the results depend on the processing

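Counts of members called lower after induction held under most of 28 alternatives. Requiring in addition a fold over 1.5, with adjusted or with unadjusted p, left 16 members in WT at 20 hr and 13 in WT at 40 hr. In SIRT6 KD it left 16 at 20 hr, 18 of 27 at 40 hr and 2 of 4 from 20 hr to 40 hr. Leaving out 1 array gave 24 to 28 (WT, 20 hr), 23 to 25 (WT, 40 hr), 23 to 27 (SIRT6 KD, 20 hr), 22 to 27 (SIRT6 KD, 40 hr), 1 (WT, 40 hr against 20 hr) and 3 to 4 (SIRT6 KD, 40 hr against 20 hr). The few calls of a higher level were unstable. From 20 hr to 40 hr in WT, the main count of 1 (Ddx58) became 2 with unmoderated or trended variances and with bright clusters alone, 0 with the replicate block, all clusters, median centring, cyclic loess or either fold threshold, and 0 to 1 without 1 array. In SIRT6 KD the count of 1 (Lgals3bp) became 3 with bright clusters, 0 with median centring or either fold threshold, and 0 to 2 without 1 array (0 without replicate 1 at 20 hr or at 40 hr, 2 without replicate 3 at 20 hr). Stat2 was called higher at 20 hr under median centring in both genotypes and with bright clusters in SIRT6 KD (1 member in place of 0), and Oas3 at 40 hr in WT without replicate 1 at 0 hr (0 to 1). The causes were not tested. Counts between genotypes stayed at 0 in every alternative. For 82 single named results, 2193 alternatives kept the main outcome, 77 lost a call and 0 reversed direction. The outcomes kept include the genotype differences, which were not called in the main fit and stayed so. Irf1 in WT at 20 hr was also lost under median centring. Bst2 in SIRT6 KD at 40 hr was also lost with unmoderated variances and with all clusters. The replicate block, the only paired fit, moved no other count by over 1.5 times. Signals at or below the receptor level limit what falls can be measured. This concerns Mx1, Rsad2, Irf7, Oas2, Oas3, Oasl1 and Cmpk2, whose WT mean at 0 hr lay there. It also concerns the 11 called members whose WT mean at 20 hr lay there.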
